A study of Mus musculus with 22 samples.

Results

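A set of 8 genes of the primitive streak and the early mesoderm was followed across the iPS cell lines: Mixl1, Tbx6, Wnt3, Wnt3a, Mesp1, Mesp2, Meis2 and Evx1. From the deposited tables of regions, those that overlap the extent of a gene widened by 2500 bp on either side were taken: 49 of 135566 H3K27ac regions and 3 of 68845 H3K9me3 regions. Meis2 held 22 of the H3K27ac regions, Wnt3a 9, Wnt3 8, Evx1 3, Tbx6, Mesp1 and Mesp2 2 each, and Mixl1 1. Just inside that window lay a Meis2 region 2394 bp from the gene (25.8 normalized reads on average) and a Wnt3a region at 1908 bp (117), and just outside it regions 3255 bp from Tbx6 (254) and 3874 bp from Mesp2 (255).

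H3K27ac is an acetylation of histone H3 at active promoters and enhancers, and H3K9me3 a methylation of the same histone in silenced chromatin. Both were mapped by ChIP-seq in mouse iPS cells made from C57BL/6 embryonic fibroblasts, with 2 libraries per line and mark. The OSKM line had received Oct4, Sox2, Klf4 and c-Myc. The C2 line had received the zinc-finger artificial transcription factors ZFATF1, ZFATF2 and ZFATF3 in place of Oct4, the C3 line ZFATF1, ZFATF2 and ZFATF4, and both carried Sox2, Klf4 and c-Myc as well. Cells of all 3 lines were given 100 nM 4-hydroxytamoxifen, which activates the Oct4-MerCreMer recombinase that they carry with a Tomato/GFP reporter, and were fixed in 1.5% formaldehyde. The labels do not say whether a line is 1 clone or whether its libraries came from separate cultures, so p-values measure the spread between these libraries, which may be technical. Factor set and line cannot be told apart, and C3 had its own inputs while C2 and OSKM shared theirs.

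In the embryo the primitive streak forms where Wnt and Nodal signals meet, and cells that pass through it become mesoderm and definitive endoderm. Wnt3 and Wnt3a are secreted ligands that activate β-catenin and, with it, the TCF/LEF factors. Mixl1 and Evx1 are homeobox factors of the streak, Tbx6 is a T-box factor of the presomitic mesoderm, and Mesp1 and Mesp2 are paired basic helix-loop-helix factors of the early cardiac and somitic mesoderm. Meis2, a homeobox factor of the TALE class, works beside Hox proteins in many later tissues. These genes are silent or low in naive pluripotent cells and rise on differentiation.

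The sequence just upstream of the start site was read for 7 of the 8 genes from the RefSeq promoter table of build GRCm38.p6, the build of the regions (mm10); Mixl1 has no entry there. Shown are 4 of them: Tbx6, whose start site lay in a region that differed between lines, Meis2, whose start site lay between regions that differed, Mesp1, with the most matches to a Wnt-responsive motif, and Evx1, where H3K9me3 covered the start site. Each is the 250 bases before the start site, in the direction of the gene, with motif matches in capitals.
Tbx6 (chr7:126781233-126781482, plus strand): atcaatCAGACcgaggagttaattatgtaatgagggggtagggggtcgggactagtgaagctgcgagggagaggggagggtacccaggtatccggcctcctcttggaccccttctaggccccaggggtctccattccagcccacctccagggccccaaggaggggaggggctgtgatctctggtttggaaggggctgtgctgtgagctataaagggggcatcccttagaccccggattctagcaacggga
Mesp1 (chr7:79793591-79793840, minus strand): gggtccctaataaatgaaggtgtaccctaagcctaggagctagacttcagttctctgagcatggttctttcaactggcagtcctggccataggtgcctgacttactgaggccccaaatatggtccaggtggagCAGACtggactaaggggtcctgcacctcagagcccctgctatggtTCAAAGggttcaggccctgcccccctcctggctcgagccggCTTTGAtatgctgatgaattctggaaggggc
Meis2 (chr2:116064620-116064869, minus strand): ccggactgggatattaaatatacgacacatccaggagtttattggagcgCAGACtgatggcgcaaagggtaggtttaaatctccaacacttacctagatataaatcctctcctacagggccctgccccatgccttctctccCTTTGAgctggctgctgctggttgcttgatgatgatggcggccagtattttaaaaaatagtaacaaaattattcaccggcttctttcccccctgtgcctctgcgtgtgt
Evx1 (chr6:52313248-52313497, plus strand): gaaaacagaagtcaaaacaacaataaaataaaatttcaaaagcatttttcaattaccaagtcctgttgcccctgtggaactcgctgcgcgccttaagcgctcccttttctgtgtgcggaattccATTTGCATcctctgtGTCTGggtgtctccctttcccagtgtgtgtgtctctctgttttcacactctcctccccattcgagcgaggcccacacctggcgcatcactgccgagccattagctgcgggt
The motifs searched, on both strands, were CTTTGA (bound by TCF/LEF), TCACACCT (T-box), ATGCAAAT (the octamer of Oct4), AATNCACA (FOXH1), CAGAC (SMAD) and CATTGT (SOX); they do not overlap one another in these windows. TCF/LEF letters stood at 2 places in the window of Mesp1 and 1 in that of Meis2, and 13.8% of all 32851 promoter windows hold them. The octamer stood in the window of Evx1 alone among the 7, on the minus strand, beside 1.6% of all windows. SMAD letters stood in 5 of the 7 windows (Tbx6, Wnt3, Mesp1, Meis2 and Evx1), beside 42.2% of all. None of the 7 windows held the T-box, FOXH1 or SOX letters (1.12%, 3.18% and 10.7% of all windows). The window of Wnt3a had 87.6% G or C and 41 CpG, against medians of 52.4% and 6 over all windows. A match is only a match of letters.

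Values below are normalized reads per region, as deposited. Each table holds 1 pair of lines and was normalized on its own, so OSKM values are 1.09-fold higher in the table with C3 than in the table with C2 for H3K27ac and 1.11-fold for H3K9me3, and levels are compared within a table. Folds are on the scale of log2(normalized reads + 1), with the standard error (SE) of limma's fit across all regions. The call rule was an adjusted p under 0.05 by Benjamini and Hochberg, over all regions of a table that were tested. The libraries held 7033486 to 17649231 reads in regions for H3K27ac and 3412599 to 8548902 for H3K9me3.

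The strongest region of each gene, the one with the highest mean over all lines, was ranked by normalized reads per kb among the strongest regions of 29781 genes. In OSKM, Meis2 held 162 ± 13.0 reads per kb (SD, n = 2; percentile 80.4) and was the highest of the 8. Mesp2 (112 ± 16.8), Wnt3a (111 ± 9.54) and Mixl1 (107 ± 23.3) followed and did not differ beyond their spread. Mesp1 (88.6 ± 31.9) and Tbx6 (66.2 ± 9.54) came next, and Evx1 (36.9 ± 21.7) and Wnt3 (21.6 ± 0.387, percentile 22.7) were lowest. The place of Wnt3 depends on choosing regions by total reads. Its chosen region is wide (2184 bp) and held 22.9 reads per kb over all lines. The other Wnt3 regions held 32.8 to 58.7. In C3, Mixl1 was lowest, at 20.3 ± 0.605 reads per kb (percentile 18.2), beside 23.7 ± 3.86 for Tbx6. A peak was called in both libraries of a line in 7 of the 49 regions for C2, in 22 for C3 and in 13 for OSKM. Such peaks were not counted over all regions, and C2 replicate 2 held the fewest reads in regions (7033486). These counts are thus no measure of a difference between lines at these genes. In 5 regions all 6 libraries had a peak: the single region of Mixl1, and 2 each of Wnt3a and Meis2. At the other end, 15 regions had no peak in any of the 6 libraries, 12 of them in Meis2 and 3 in Wnt3a, and 10 lay at 1 read in all 6. Of all H3K27ac regions 30.6% had no peak in these libraries either.

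In C3, H3K27ac was lower than in OSKM at 5 of the 8 genes and higher along part of Meis2. Of 37 regions tested, 11 were called (29.7%, beside 22.0% of all regions tested): 7 lower, in Mixl1, Tbx6, Wnt3a, Mesp2 and Meis2 (8.52% of all regions were called lower), and 4 higher, all in Meis2 (13.5%). In C2, 2 of 36 tested regions were called, both lower, in Wnt3a and Meis2 (5.56%, beside 10.6% of all regions, 5.38% lower and 5.21% higher). The share for C2 is thus under the background and that for C3 somewhat over it. With any 1 library left out the members called were 5 to 8 in C3 and 0 to 6 in C2. Over strongest regions alone, 5 of 8 were called lower in C3 and 2 of 8 in C2, beside 8.72% and 9.70% of the strongest regions of all genes. No strongest region of the 8 was called higher, beside 8.90% of all genes in C3 and 3.40% in C2. The members were named with such results in view, so these shares are no independent evidence of a direction. Both libraries of the line lay below both of OSKM in 13 tested regions for C3 and 17 for C2 (30.4% and 30.3% of all regions), and above in 9 and 5 (33.0% and 28.8%). The median log2 fold change over tested member regions was -0.31 in either comparison, against 0.03 (C3) and -0.01 (C2) over all regions. With the lowest 50% of regions left out, the median over all regions was -0.05 (C3) and -0.18 (C2). Over the strongest regions of all genes it was -0.16 (C3) and -0.32 (C2), and over those of the 8 genes -1.05 and -0.53. Both comparisons share the OSKM libraries. Of 12 and 13 member regions left out as too low to test, all lay in Meis2 but 1, in Wnt3a.

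The share of higher calls over the whole H3K27ac tables moved with the scaling. It was 61.3% for C3 against OSKM and 50.5% with median-centred libraries. For C2 against OSKM it was 49.2%, 37.6% with median-centred libraries, 62.2% with quantile normalization and 72.2% with reads scaled to the total in regions. Median centring moved the median of all regions from 0.03 to -0.14 (C3) and from -0.01 to -0.13 (C2), and scaling to the total moved that of C2 to 0.33.

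**Figure D1:**
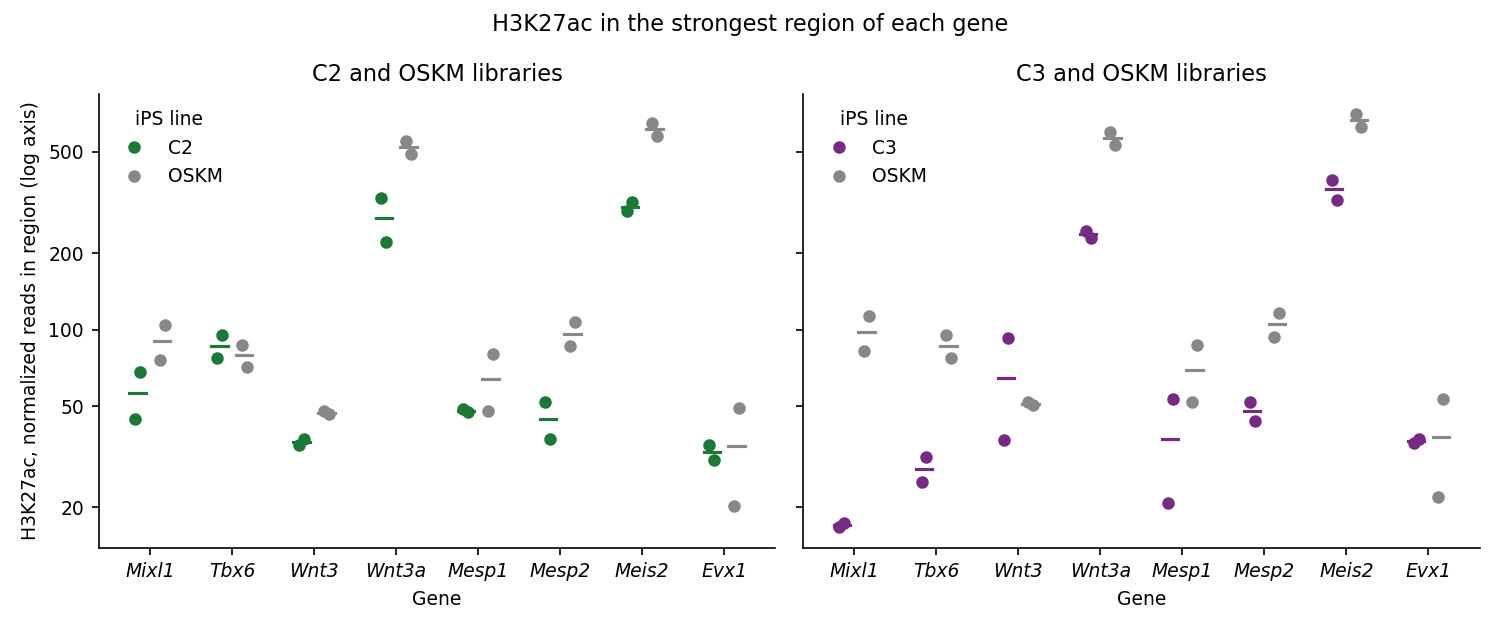
H3K27ac in the strongest region of each of the 8 genes, as normalized reads per region on a log axis, in the table of C2 and OSKM (left) and of C3 and OSKM (right). Points are libraries (n = 2 per line) and bars their mean; the C3 libraries lie below the OSKM libraries at Mixl1, Tbx6, Wnt3a, Mesp2 and Meis2, while Wnt3, Mesp1 and Evx1 overlap.

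Mixl1 showed the largest difference among the strongest regions. Its only region (chr1:180696514-180697357, across the edge of the gene) held 16.7 and 17.5 normalized reads in the C3 libraries and 82.8 and 113 in the OSKM libraries. Both C3 libraries were far below both of OSKM, and the region fell in C3 (log2 fold change -2.43 ± 0.42 SE, limma adjusted p = 0.00792). In C2 it held 44.6 and 68.0, beside 76.2 and 104 in OSKM, a difference of -0.68 with a 95% interval of -1.48 to 0.11 that did not pass the test (adjusted p = 0.228). The C2 libraries lay between the other lines without reaching either. The fall in C3 was called in each of the 15 alternatives run for it.

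Tbx6 differed in C3 at its start site. The region there (chr7:126780869-126782066) covers the whole promoter window printed above. It held 25.1 and 31.6 normalized reads in C3 against 94.9 and 77.4 in OSKM and fell (log2 fold change -1.57 ± 0.38, adjusted p = 0.0231). In C2 the values, 77.3 and 94.9, overlapped those of OSKM, 87.4 and 71.2 (0.12, interval -0.55 to 0.78, adjusted p = 0.809). The call in C3 was lost in 3 of 15 alternatives, among them the fits without OSKM replicate 1 and without C3 replicate 1. The second Tbx6 region, upstream of the start and over the extent of Ypel3, had libraries that overlapped between lines in both comparisons.

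Of the Mesp genes, which lie side by side on chromosome 7, Mesp2 was lower in C3 than in OSKM, while at Mesp1 the libraries overlapped. The strongest region of Mesp2, inside the gene (chr7:79811162-79812022), held 51.9 and 43.6 normalized reads in C3 against 93.8 and 116 in OSKM and fell (log2 fold change -1.12 ± 0.32, adjusted p = 0.0398). In C2 it held 52.1 and 37.2 against 86.3 and 107, a difference of nearly the same size (-1.11 ± 0.33) that missed the threshold (adjusted p = 0.0693) but passed it in 5 of 15 alternatives (0.0313 at the lowest, 0.0333 without C2 replicate 1). All libraries of C2 and C3 were below all libraries of OSKM. The call in C3 was lost without any 1 of the 4 libraries (adjusted p from 0.0503 to 0.227). The region over the Mesp2 start site had few reads (11.7 and 19.6 in C3, 34.2 and 40.7 in OSKM) and was not called (-1.24, adjusted p = 0.156). Mesp1 was marked within the gene, next to its start (chr7:79792829-79793551), at 20.9 and 53.4 in C3 and 51.9 and 87.4 in OSKM. These libraries overlapped, and neither C3 (-0.98, adjusted p = 0.222) nor C2 (-0.36, adjusted p = 0.559) was called.

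Of the Wnt ligands, Wnt3a was lower in both lines at its strongest region, which lies within the gene. Its strongest region is 4699 bp wide, with its centre 8.18 kb downstream of the start site (chr11:59280220-59284918). It held 244 and 230 normalized reads in C3 against 600.5 and 532 in OSKM and fell (log2 fold change -1.25 ± 0.21, adjusted p = 0.00755). In C2 it held 329 and 221 against 553 and 489 and fell as well (-0.95 ± 0.24, adjusted p = 0.0443). The libraries of C2 and C3 were thus all below those of OSKM. The call in C2 was lost in 5 of 15 alternatives, and its fold ran from -1.23 to -0.53 over the 15. Among the 5 were quantile normalization, either OSKM library left out and the FDR of the authors' deposited table (0.175). In C3 the call was kept in each of the 15 alternatives run. A region beside the far end of Wnt3a (chr11:59242920-59246128), with a peak in all 6 libraries, had libraries that overlapped those of OSKM in both lines. The log2 fold change there was 0.05 in C3 and -0.33 in C2 (limma adjusted p = 0.932 and 0.496).

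A further 2 regions within Wnt3a were called lower in C3, neither with a peak in any of the 6 libraries. At chr11:59262919-59263919 the C3 libraries stood at 1 read each (0.837 and 1.09 normalized reads) and the OSKM libraries at 12.1 and 8.94 (adjusted p = 0.0386). The OSKM mean was 3.65-fold over a floor of 3 reads per C3 library. At chr11:59285287-59286287 the C3 libraries again stood at 1 read, against 15.5 and 7.94 (adjusted p = 0.0395), with the OSKM mean 4.05-fold over that floor. Such floors cover only the counting error of the line at 1 read. Each of the 2 calls was lost in 3 of 13 alternatives. Among these were the fits without C3 replicate 1 and without OSKM replicate 1, and for the second call also that without C3 replicate 2. The region over the Wnt3a start site did not pass the test, with 30.1 and 25.1 in C3 against 51.9 and 55.6 in OSKM (-0.94, adjusted p = 0.148), and in C2 its libraries overlapped those of OSKM (0.12, adjusted p = 0.836).

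Wnt3 had 8 weak regions and limma called none of them. Its strongest, 41.6 kb into the gene (chr11:103814686-103816869), held 35.3 and 37.2 normalized reads in C2 against 47.7 and 46.5 in OSKM, and 36.8 and 92.7 in C3 against 51.9 and 50.6. The C2 libraries were below those of OSKM by -0.37 (interval -1.26 to 0.52, adjusted p = 0.558), and the C3 libraries lay on either side of them (0.19, interval -0.91 to 1.28, adjusted p = 0.80). No H3K27ac region covered the Wnt3 start site; the nearest ones, 1.32 kb upstream and 0.324 kb downstream, also overlap the extent of Wnt9b. The log2 fold changes of the 8 regions ran from -1.98 to 0.23 in C2 and from -1.63 to 0.19 in C3. The lowest in C3, at chr11:103794895-103795496, held 20.1 and 7.64 normalized reads against 38.6 and 42.7 in OSKM (adjusted p = 0.107), and was the only one of the 8 with an FDR under 0.05 in the authors' deposited table (0.0362, log2 fold -1.55).

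Evx1 had 3 weak regions downstream of its start site, none of them called. The strongest (chr6:52313716-52314659, shared with the antisense gene Evx1os) held 35.3 and 30.8 normalized reads in C2 against 20.3 and 49.3 in OSKM, and 36.0 and 37.1 in C3 against 22.1 and 53.6. The libraries overlapped in both comparisons (0.05, interval -1.2 to 1.3, and 0.08, interval -1.16 to 1.32; adjusted p = 0.956 and 0.926), and the sign turned under other scalings. At the next region, 2.27 kb downstream of the start, both C2 libraries (26.9 and 14.1) and both C3 libraries (17.6 and 27.3) were above those of OSKM (9.14 and 4.56, and 9.93 and 4.96 in the other table), without passing the test (1.45 and 1.50, adjusted p = 0.262 and 0.176).

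**Figure D2:**
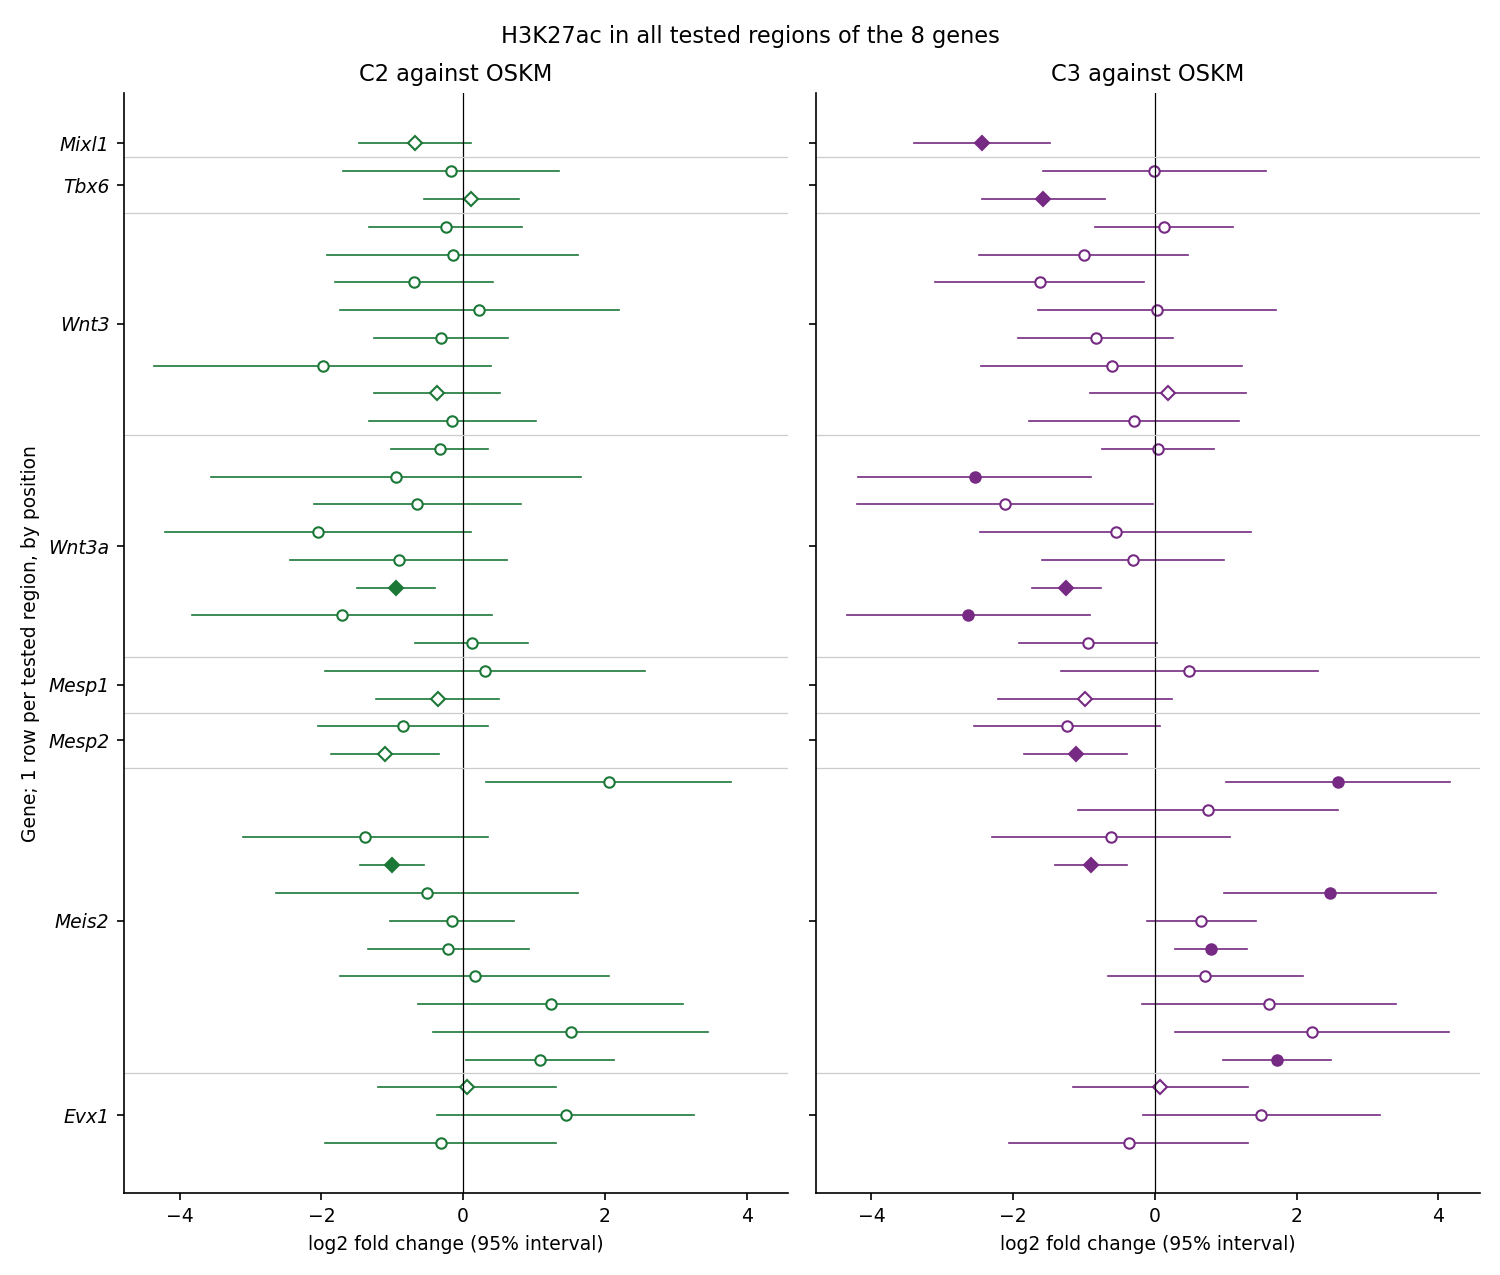
Log2 fold change of H3K27ac against OSKM (x axis) for every tested region of the 8 genes, in C2 (left, 36 regions) and C3 (right, 37 regions), 1 row per region in order of position within each gene. Bars are 95% intervals of the limma fit, diamonds the strongest region of a gene and filled symbols regions called at adjusted p under 0.05; the calls are 2 in C2, both lower, and 11 in C3, of which the 4 higher ones are all in Meis2.

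Meis2 was the only one of the 8 genes with calls in both directions. Its strongest region, 43.9 kb into the gene (chr2:116018874-116022658), held 389 and 325 normalized reads in C3 against 704 and 629 in OSKM and fell (log2 fold change -0.90 ± 0.22, adjusted p = 0.0238). In C2 it held 293 and 317 against 648 and 579 and fell too (-1.01 ± 0.20, adjusted p = 0.0228). No C2 or C3 library reached the lower OSKM library. The call in C2 was lost in 5 of 15 alternatives, quantile normalization among them, and its fold ran from -1.12 to -0.41 over the 15. Both calls were lost without OSKM replicate 1 (adjusted p = 0.224 in C3 and 0.201 in C2) and without OSKM replicate 2 (0.117 and 0.0966), and neither was called by the FDR of the authors' deposited table (0.0841 and 0.0738).

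The 4 regions that rose in C3 lay near the start of Meis2, in the gene and at its far end. Upstream of the start, a region that also reaches the gene G630016G05Rik (chr2:116066076-116067550) held 103 and 132 normalized reads in C3, over 36.4 and 32.8 in OSKM, a log2 fold change of 1.73 ± 0.33 (adjusted p = 0.0109). Downstream, a region of 3413 bp (chr2:116060294-116063706) held 397 and 350 against 196 and 233 (0.80 ± 0.22, adjusted p = 0.0373). Both C3 libraries were above both OSKM libraries at each. The upstream call was kept in each alternative run, while the downstream one was lost in 5 of 14. Among the 5 were C3 replicate 1 or either OSKM library left out and the FDR of the authors' deposited table (0.151). Peaks were called there in both C3 libraries; in OSKM they were called in both libraries at the downstream region and in neither at the upstream one.

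The other 2 were weak in OSKM and had peaks in both C3 libraries and in no library of the other lines. At 24.9 kb into the gene (chr2:116039325-116040178) the C3 libraries held 44.3 and 48.0 against 11.0 and 4.96 (2.48 ± 0.65, adjusted p = 0.0308). Beside the far end, 206 kb from the start (chr2:115857854-115858870), they held 41.8 and 44.7 against 9.93 and 3.97 (2.59 ± 0.68, adjusted p = 0.0318). This last region lies 2394 bp outside the extent, just within the window of 2500 bp, and 11 of the 22 Meis2 regions, between it and the start, were too low to test in C3. The call at each of these 2 regions was lost in 4 of 14 alternatives, among them the fits without either C3 library or without OSKM replicate 2.

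In C2 none of these 4 regions was called by limma. At the far end C2 held 26.9 and 28.2 against 9.14 and 3.65 in OSKM (2.06, adjusted p = 0.113; FDR 0.00943 in the authors' deposited table), and upstream of the start 102 and 46.2 against 33.5 and 30.1 (1.09, adjusted p = 0.156). At the region of 3413 bp its libraries stood apart from each other, at 318 and 91.1, on either side of the 181 and 214 of OSKM (-0.21, adjusted p = 0.802). At 24.9 kb it held 7.57 and 2.57, overlapping the 10.2 and 4.56 of OSKM (-0.51, adjusted p = 0.737). Over the start site itself (chr2:116064292-116064900, which holds the promoter window printed above) both lines lay above OSKM without passing the test: 24.3 and 34.9 in C3 against 4.42 and 16.9 (1.61, adjusted p = 0.175), and 21.9 and 19.2 in C2 against 4.06 and 15.5 (1.23, adjusted p = 0.354).

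**Figure D3:**
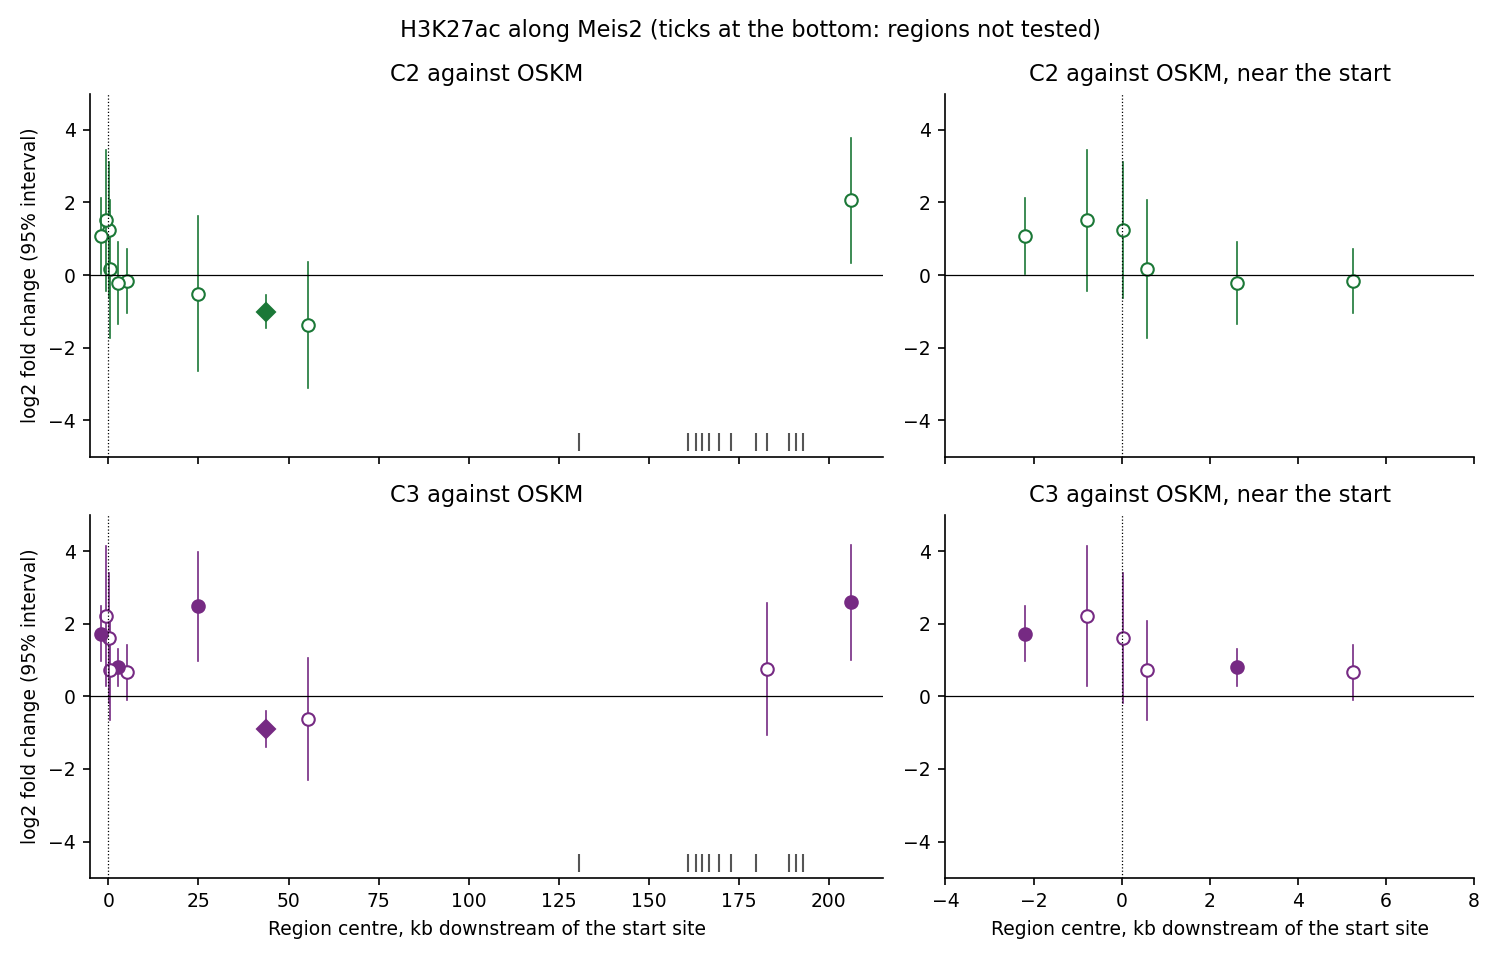
Log2 fold change of H3K27ac against OSKM in the regions of Meis2 by the distance of the region's centre from the start site, in kb downstream, for C2 (top) and C3 (bottom), with the stretch near the start enlarged at the right. Bars are 95% intervals, filled symbols are called regions, the diamond is the strongest region (-1.01 in C2, -0.90 in C3), and ticks at the bottom mark regions too low to test.

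In the main fit, without a replicate block, limma called no member region between C2 and C3 themselves. Of 37 regions tested, 0 were called by limma (59 of all 101532, or 0.0581%, were), 4 had an unadjusted p under 0.05, and edgeR on whole reads also called 0. Both C2 libraries were above both C3 libraries in 9 member regions and below in 4 (19.3% and 22.2% of all regions). At the Tbx6 start site C2 held 82.3 and 100.2 normalized reads and C3 23.8 and 30.2 (log2 fold change of C2 over C3 1.72 ± 0.46, adjusted p = 0.167). At Mixl1 they held 47.4 and 71.7 against 15.9 and 16.6 (1.78 ± 0.61, adjusted p = 0.259). Neither pair of libraries overlapped. At the Meis2 region 24.9 kb into the gene C2 held 8.05 and 2.71 and C3 42.1 and 45.8 (-2.95 ± 0.89, adjusted p = 0.201), where the authors' deposited table gives an FDR of 0.00520. The Tbx6 region was called with all regions kept in the fit (adjusted p = 0.0230) and without C3 replicate 2. With a replicate block limma called 4 member regions, among them Tbx6 (adjusted p = 0.00149) and Mixl1 (0.0213). The labels do not pair these libraries. At the strongest regions of Wnt3a (0.34, interval -0.32 to 0.99), Mesp2 (0.04, interval -0.99 to 1.08) and Meis2 (-0.07, interval -0.70 to 0.56) the intervals span 0.

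The repressive mark was not called different at these genes in any comparison. H3K9me3 regions lay at 3 of the 8 genes, beside 12236 of the 49997 genes of the annotation. Wnt3, Wnt3a and Evx1 held 1 H3K9me3 region each, and the other 5 genes had none within the window. The Wnt3 region, 31.1 kb into the gene (chr11:103804354-103806295), had a peak in all 6 libraries. It held 254.5 and 224 normalized reads in C2 against 236 and 247 in OSKM (log2 fold change -0.02, interval -0.41 to 0.38, adjusted p = 0.977), and 317 and 258 in C3 against 263 and 271 (0.10, interval -0.23 to 0.42, adjusted p = 0.750). Its level per kb stood at percentile 92.4 of 12236 genes with such a region in OSKM, 97.5 in C2 and 99.1 in C3. All lines thus carried strong H3K9me3 in the same stretch of Wnt3, between its weak acetylated regions.

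The Wnt3a region lies toward the far end of the gene (chr11:59249177-59249937, 41.2 kb from the start). Both C2 libraries, 51.6 and 64.1, were above those of OSKM, 17.0 and 44.1, as in 15.8% of all regions (1.04 ± 0.46, adjusted p = 0.273), while C3, 77.6 and 38.0 against 19.0 and 48.2, overlapped (0.82, adjusted p = 0.360). The Evx1 region covers the start site and the promoter window printed above (chr6:52312793-52313678) and is shared with Evx1os. It held 59.6 and 48.8 in C2 against 47.7 and 55.8 in OSKM (0.06, interval -0.67 to 0.79, adjusted p = 0.952), and 63.8 and 28.9 in C3 against 53.2 and 61.1 (-0.40, interval -1.27 to 0.47, adjusted p = 0.603). Libraries overlapped in both. Of the 3 regions 0 were called by limma or by edgeR, with 1 unadjusted p under 0.05 (Wnt3a in C2), beside 3.29% (C2 against OSKM), 9.06% (C3 against OSKM) and 0.134% (C2 against C3) of all H3K9me3 regions. Higher calls made up 11.8% of those in C2 against OSKM (28.0% with quantile normalization, 41.8% with reads scaled to the total) and 19.0% in C3 (40.2% and 65.3%).

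**Figure D4:**
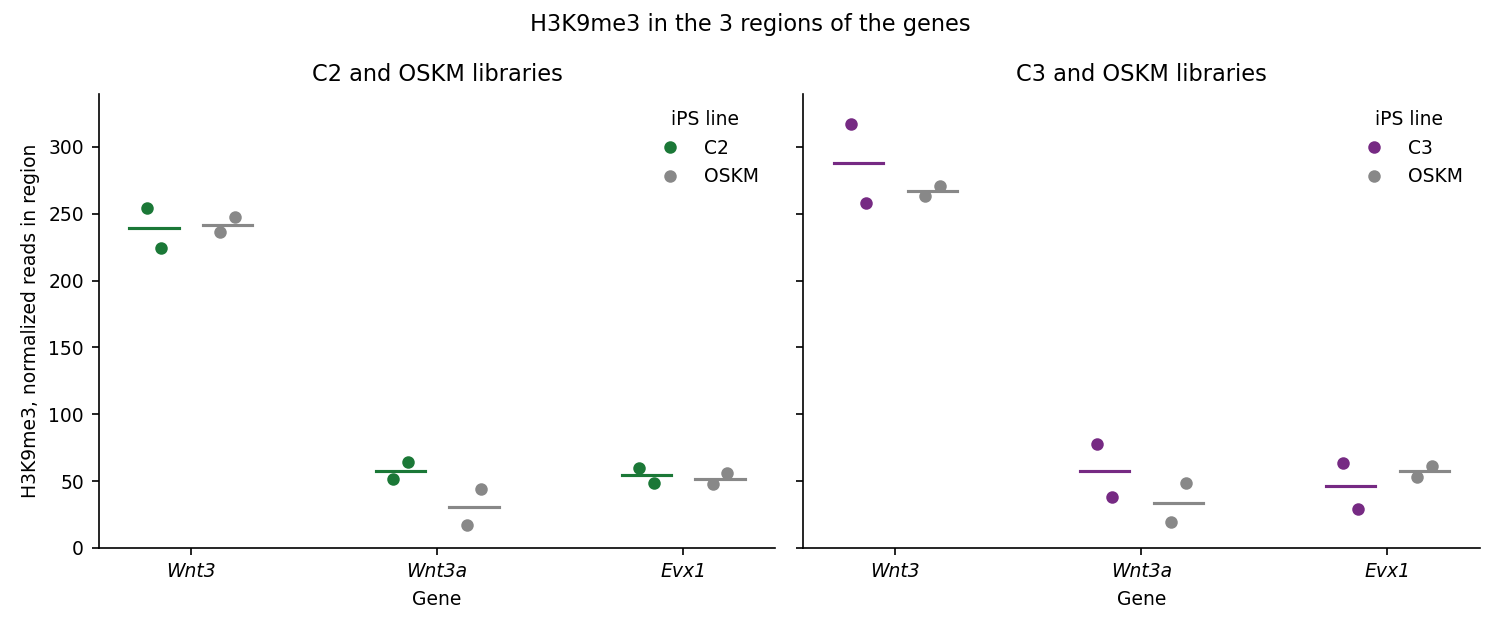
H3K9me3 in the 3 regions of Wnt3, Wnt3a and Evx1, as normalized reads per region, in the table of C2 and OSKM (left) and of C3 and OSKM (right). Points are libraries (n = 2 per line) and bars their mean; at Wnt3 the libraries lie between 224 and 317, and both C2 libraries are above those of OSKM at Wnt3a alone.

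Other genes of the same steps of development were taken from 5 lists, each gene by its strongest H3K27ac region. Of 21 tested genes of Wnt signalling in the streak, 1 rose in C2 and 2 in C3, and 0 fell in either (medians -0.21 and -0.02). Over the alternatives, 1 to 2 genes of this list were called higher and 0 to 8 lower in C2, and 1 to 4 higher and 0 to 3 lower in C3. Wnt5a, a ligand that mainly signals without β-catenin, stood at 1 read in both OSKM libraries. In C2 it held 53.8 and 57.7 normalized reads, a mean 19.3-fold over a floor of 3 reads per OSKM library (adjusted p = 0.0150). In C3 it held 61.9 and 50.2, a mean 17.8-fold over such a floor (adjusted p = 0.00560). Lef1, a nuclear target and partner of β-catenin, rose in C3 from 110 and 134 to 285 and 195 (log2 fold change 0.95, adjusted p = 0.0410). Both Wnt5a calls were kept in each alternative run. That of Lef1 was lost in 4 of 14 alternatives, among them the fits without C3 replicate 1 or without OSKM replicate 1. Of the 68 tested genes of all 5 lists 4 rose and 4 fell in C2, and 5 rose and 3 fell in C3. Over the strongest regions of all genes 3.40% were called higher and 9.70% lower in C2, and 8.90% and 8.72% in C3.

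Of 13 tested genes of the streak itself, 2 fell in C2 and 1 in C3, and 0 rose (medians -0.41 and -0.08), with 0 to 7 called lower and 0 to 2 higher in C2, and 0 to 4 lower and 0 to 1 higher in C3, over the alternatives. Lefty2, an inhibitor of Nodal, fell in C2 from 4728 and 4167 normalized reads to 1483 and 1360 (-1.64, adjusted p = 0.0127) and in C3 from 5137 and 4532 to 2464 and 1684 (-1.24, adjusted p = 0.0341). Nodal, the ligand that patterns the streak, fell in C2 from 2476 and 2530 to 1553 and 1100 (-0.94, adjusted p = 0.0484). Lefty2 and Nodal are also active in pluripotent cells. Of 13 presomitic and somite genes 1 fell in C2 (Epha4, an ephrin receptor of somite boundaries, -1.11, adjusted p = 0.0328) and 0 were called in C3 (medians -0.33 and -0.27), with 0 to 3 called lower in either line over the alternatives. None of these calls held without OSKM replicate 1 or without OSKM replicate 2. The calls of Nodal and Epha4 in C2 were each lost in 4 of 14 alternatives.

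Of 12 lateral plate and cardiac genes 2 rose in C2 and in C3, and 1 fell in C3 (medians -0.16 and -0.08). Over the alternatives 2 were called higher and 0 to 1 lower in C2, and 2 to 4 higher and 0 to 3 lower in C3. Pdgfra, a growth factor receptor of mesenchyme and of primitive endoderm, rose from 16.3 and 31.9 in OSKM to 205 and 113 in C2 (2.68, adjusted p = 0.0165) and from 17.7 and 34.8 to 336 and 242 in C3 (3.47, adjusted p = 0.00347). Snai1, a repressor of epithelial genes at the streak, rose from 157 and 173 to 500.2 and 327 in C2 (1.29, adjusted p = 0.0227) and from 171 and 188 to 653 and 489 in C3 (1.65, adjusted p = 0.00507). Etv2, a factor of blood and vessel precursors, fell in C3 (-1.22, adjusted p = 0.0177; 0.116 without OSKM replicate 1 and 0.0541 without C3 replicate 1). The calls of Pdgfra and Snai1 were kept in each alternative run. Of 9 genes of the TALE class, to which Meis2 belongs, Pknox2 rose (1.17 in C2 and 0.88 in C3, adjusted p = 0.0217 and 0.0347) and Pknox1 fell (-0.87 and -1.37, adjusted p = 0.0306 and 0.00804). Over the alternatives 0 to 1 genes of the class were called higher and 0 to 5 lower in C2, and 0 to 2 higher and 1 to 2 lower in C3. Both Pknox2 calls and the Pknox1 call in C2 were lost without either OSKM library. In all, the Pknox2 call in C3 was lost in 4 of 14 alternatives and the Pknox1 call in C2 in 5. In H3K9me3, 11 genes of the lists were tested; 0 were called in C2 against OSKM and 2 fell in C3: Snai1, from 89.4 and 91.6 to 21.5 and 6.07 (-2.86, adjusted p = 0.00563), and Tcf7l1, a repressor of Wnt targets, from 68.4 and 65.1 to 20.7 and 10.6 (-2.09, adjusted p = 0.0138). Without either OSKM library these adjusted p rose to between 0.0727 and 0.151.

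**Figure D5:**
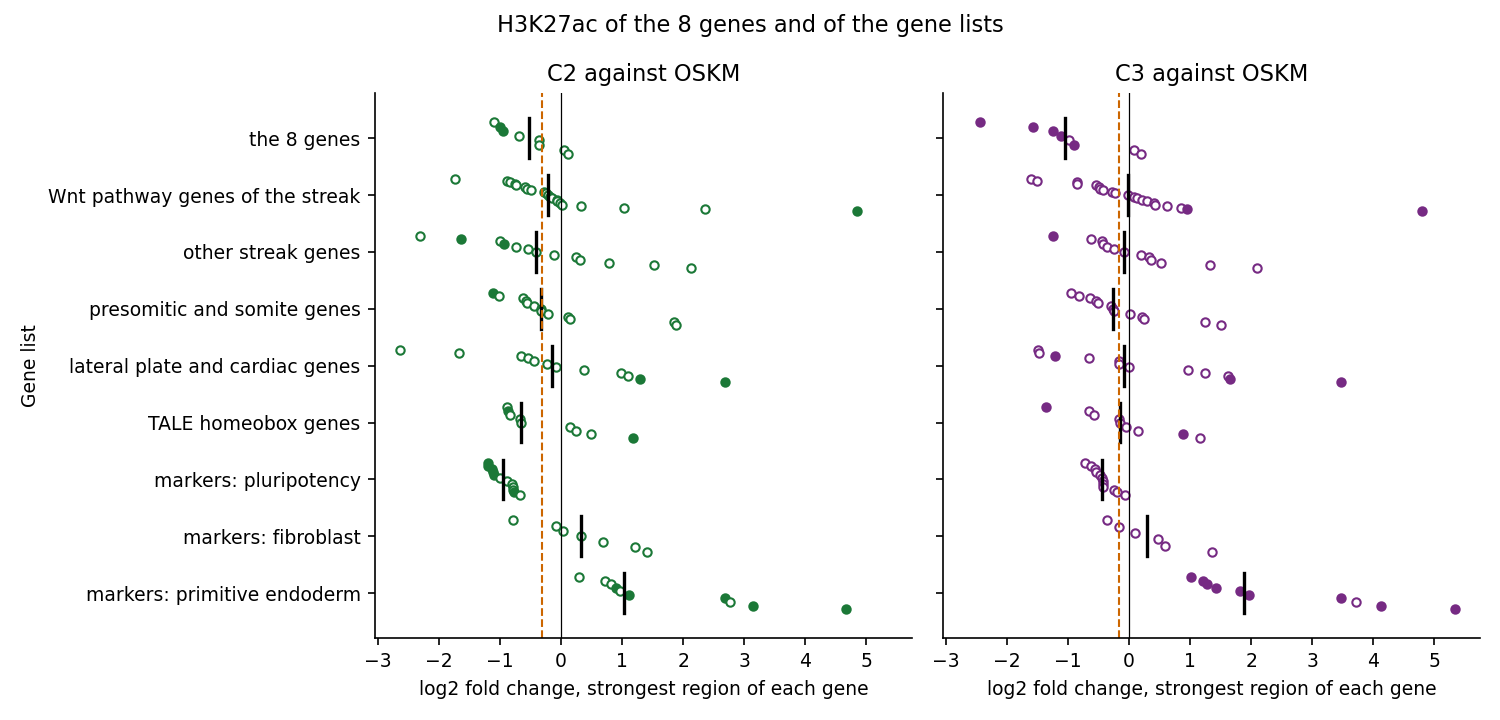
Log2 fold change of H3K27ac against OSKM in the strongest region of each gene (x axis), for the 8 genes, 5 gene lists and 3 lists of cell type markers, in C2 (left) and C3 (right). Each point is a gene, filled where called, black bars are list medians and the dashed line is the median over the strongest regions of all genes (-0.32 in C2, -0.16 in C3); the median of the 8 genes is -0.53 in C2 and -1.05 in C3.

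Of the cell type markers, part of those of primitive endoderm and pluripotency were called in the main fit, and those of fibroblasts were not. Beside them, 3.40% of the strongest regions of all genes were called higher and 9.70% lower in C2, and 8.90% and 8.72% in C3. Of 10 primitive endoderm markers, all with a region, 5 rose in C2 and 9 in C3 (Pdgfra is in this list too), and their summed H3K27ac was 4213 and 2397 normalized reads in C2 against 1296 and 1779 in OSKM, and 7946 and 4740 in C3 against 1408 and 1935. A peak in both libraries was called at 9 of them in C2, 10 in C3 and 7 in OSKM, where Foxa2 stood at 1 read in replicate 1. Peaks of this kind were not counted over all regions, so the peak counts of the marker lists are no measure of a difference between lines. Of 12 pluripotency markers, 6 fell in C2 and 0 in C3, with sums of 28238 and 20781 in C2 against 47718 and 46852, and 48125 and 30461 in C3 against 51849 and 50966. Pou5f1 (Oct4), Nanog and Sox2 were among those that fell in C2, and all 12 had a peak in both libraries of each line. Over the alternatives the markers called higher for primitive endoderm ranged from 2 to 8 in C2 and from 6 to 10 in C3, and those called lower for pluripotency from 0 to 12 in C2 and from 0 to 10 in C3. Of 10 fibroblast markers 8 had a region, with a peak in both libraries for 2 in C2 and OSKM and 5 in C3. Of these 8, 7 were tested in C2 and 6 in C3 against OSKM, and 0 were called. Their sums were 1525 and 1232 in C2 against 2139 and 2325, and 2272 and 1690 in C3 against 2325 and 2529, most of it at Fn1; Postn stood at 1 read in every library. The part of such differences in the values of the 8 genes was not tested, and fewer cells with the mark and less of the mark per cell cannot be told apart in these bulk samples.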

How the data were processed

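Per the submitters' processing notes, reads were aligned to mm10 (CASAVA 1.8.2, Bowtie2 2.2.5, SAMtools 1.3) and regions compared with DiffBind 1.16.2; per the file headers, peaks were called per library with MACS 2.1.0.20150731 (histone marks) or 2.1.1.20160309 (HA) at q 0.01. The authors' deposited region tables give a signal per library, normalized reads, in which whole reads are scaled by 1 step per library; regions without reads are held at 1 read, and the sources leave it unsaid if input reads had been subtracted. They also give the authors' log2 fold and p-value and FDR per region. Peak files give the authors' fold enrichment and −log10 p and q per peak, and serve in the text only to say whether an HA peak is there. Whether a library of a histone mark had a peak in a region was read from the flags of the region tables.

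C3 columns are named N2 in the tables. Each table was fitted with limma 3.58.1 (R 4.3.3) on log2(normalized reads + 1), 2 libraries against 2, with the lowest 25% of regions by mean left out and p-values adjusted by Benjamini-Hochberg over the rest. Alternatives included edgeR 4.0.16 on the whole reads, other filters, scalings and pseudocounts, and each library left out; reads scaled to the total in regions were added after seeing the data. Named are, for each gene, the strongest region, those called and that over the start site, with other regions shown for the pattern along a gene chosen after their values were seen; genes of the lists are named where called. The 8 genes and all lists were chosen with earlier results of these data known.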

Additional observations from a re-analysis of the deposited data

How the results depend on the processing

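Over the whole tables, 10691 (C2 against OSKM), 22363 (C3 against OSKM) and 59 (C2 against C3) H3K27ac regions were called, and 1698, 4680 and 69 H3K9me3 regions. Mixl1, the strongest Wnt3a region and the region upstream of Meis2 kept their calls in C3 in every alternative run. Other member calls were lost in at least 1 alternative. Among such alternatives were a left-out OSKM library, a left-out C3 library and other settings, and the cause was not tested. Quantile normalization gave 3341 H3K27ac regions in C2 against OSKM (members 0), 0 in C2 against C3 and 578 for H3K9me3 in C2 against OSKM. Median centring gave 17254 in C2 against OSKM. With reads scaled to the total in regions, 1 member was called in C2 against OSKM, 333 H3K27ac regions in C2 against C3 and 613 H3K9me3 regions in C2 against OSKM. By the authors' deposited FDR there were 17947 (members 1), 2430 in C2 against C3 (members 1), and for H3K9me3 3379 and 685. With all regions kept, C2 against C3 gave 2723 (members 1) and 403, and H3K9me3 in C2 against OSKM 808. A pseudocount of 8 gave 171 and 122 in C2 against C3, and edgeR 285 and 140. Without chromosomes 8, X and Y, H3K9me3 gave 551 (C2 against OSKM) and 18 (C2 against C3).

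No paired samples are named in the labels; only the replicate numbers are shared. Same-numbered libraries deviated with correlations of -0.054, -0.041 and 0.346 for H3K27ac and 0.0024, 0.035 and 0.107 for H3K9me3 (C2 against OSKM, C3 against OSKM, C2 against C3). With a replicate block, 17039 H3K27ac regions were called in C2 against OSKM (members 3) and 13562 in C2 against C3 (members 4, among them Mixl1 with an adjusted p of 0.0213 and Tbx6 with 0.00149), and 3440, 7256 and 474 H3K9me3 regions in the 3 comparisons.

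With 1 library left out, where the lone library is assumed to vary like the others, the H3K27ac regions called ranged from 6439 to 24893 in C2 against OSKM (members 0 to 6), 17378 to 22921 in C3 against OSKM (members 5 to 8) and 326 to 9001 in C2 against C3 (members 0 to 3). For H3K9me3 the ranges were 501 to 8330, 1501 to 8483 and 75 to 902, with 0 members.

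Signs turned only for differences that were not called, except the Meis2 region at 43.9 kb in C3, where the sum of all regions of the gene gave 0.12. Evx1 turned in C2 (-0.14 with quantile normalization, -0.059 with median centring, -0.075 by the authors' values; -0.57 to 0.67 with a library left out), in C3 (-0.12, -0.091 and -0.051 by the same, -0.068 with edgeR; -0.54 to 0.70) and in C2 against C3 (-0.011 with quantile normalization; -0.094 to 0.11). Wnt3 turned with the gene sum in C3 (-0.33; -0.47 to 0.84) and in C2 against C3 (0.072; -1.18 to 0.13). The strongest Meis2 region in C2 against C3 was 0.20 with quantile normalization and 0.19 with reads scaled to the total (-0.19 to 0.058). With a library left out Tbx6 in C2 ran from -0.028 to 0.26, Mesp1 in C2 from -0.73 to 0.011 and Mesp2 in C2 against C3 from -0.20 to 0.29. For H3K9me3, Wnt3 in C2 was 0.27 (quantile), 0.071 (median-centred), 0.13 (edgeR) and 0.31 (total in regions; -0.11 to 0.074). The other H3K9me3 ranges were -0.080 to 0.20 for Evx1 in C2, -0.049 to 0.25 for Wnt3 and -0.96 to 0.16 for Evx1 in C3, and -0.27 to 0.057, -0.29 to 0.75 and -0.10 to 1.04 for Wnt3, Wnt3a and Evx1 in C2 against C3.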

Other observations

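HA ChIP-seq, which marks the HA-tagged factors, was made on day 20 of reprogramming in cells with the C2 factors and Sox2, Klf4 and c-Myc and in cells with an empty vector and the same 3 factors, 2 libraries each. None of the 8 genes had an HA peak within 2500 bp of its extent in any of the 4 libraries. The libraries held 12376 and 44939 peaks with the C2 factors and 10666 and 22632 with the empty vector, and 4.63%, 9.97%, 4.28% and 6.22% of all genes had a peak in the same window. Peak numbers differed between the 2 libraries of either group.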
